A study of Homo sapiens with 6 samples.

Results

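The genes described here encode microtubule-associated proteins of neurites. They are MAPT, MAP2 and MAP4 of the tau family, MAP1A and MAP1B, MAP6, DCX and DCLK1 of the doublecortin family, and DPYSL2 and DPYSL3 of the collapsin response mediator protein (CRMP) family. They were selected by gene symbol, as structural proteins that bind microtubules or tubulin, with earlier results of these data known. All 10 symbols were found among the 28862 genes listed in the count table, and all 10 passed the filter on low counts that left 15829 genes tested. The RNA is from SH-SY5Y, a neuron-like human neuroblastoma cell line, in a study of what SMN1 does to the transcriptome when overexpressed. The control group is 3 libraries from cells given a control plasmid (NC), and the other group is 3 libraries from the same line with the label SMN1 overexpression (here, SMN1-labelled libraries). Both groups come from a single tumour-derived line that carries a plasmid, and the vector, its promoter, the dose and the time after its delivery are not given in the labels. The labels do not say if libraries of 1 group are separate cultures. The p-values therefore speak of the spread between these 6 libraries only, which may be technical.

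Microtubules are polymers of tubulin that give axons and dendrites their shape and carry their transport. Tau-family proteins bind along the microtubule lattice through related repeats and slow its disassembly, MAP1 proteins and MAP6 stabilise it in other ways, doublecortin-domain proteins bind between protofilaments, and CRMPs bind tubulin and link guidance signals to the growth cone. In neuroblastoma lines, which stem from the sympathetic lineage, several of these genes are used as markers of neurite outgrowth and neuronal maturation.

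Sequences upstream of annotated starts are shown for 4 of the genes, because MAP1A and MAP1B were both lower in SMN1-labelled libraries, and MAP2 and DCLK1 both higher. Each is the 250 bases before a RefSeq transcript start (GRCh38.p14), written 5′ to 3′ on the strand of the gene. For each gene it is the start whose window holds the most CpG dinucleotides, and for DCLK1 an internal start is added. The windows lie at chr15:43510704-43510953 for MAP1A, chr5:72107225-72107474 for MAP1B and chr2:209579357-209579606 for MAP2, all on the plus strand. Those of DCLK1 lie on the minus strand at chr13:36131383-36131632 for the outer start and chr13:35855668-35855917 for the internal start. Outer is meant against the internal start only: a further RefSeq start of DCLK1 lies upstream of it (window chr13:36131940-36132189) and is not shown. In the GENCODE v29 annotation MAP1B starts at 72107234 and MAP2 at 209424058. Most of the MAP1B window and all of the MAP2 window therefore lie inside the gene as annotated there. Capitals mark matches, on either strand, to any of 5 motifs: the GC box GGGCGG, the E-boxes CAGATG and CATATG, the TATA box TATAAA, and the AP-1 element TGANTCA.
MAP1A: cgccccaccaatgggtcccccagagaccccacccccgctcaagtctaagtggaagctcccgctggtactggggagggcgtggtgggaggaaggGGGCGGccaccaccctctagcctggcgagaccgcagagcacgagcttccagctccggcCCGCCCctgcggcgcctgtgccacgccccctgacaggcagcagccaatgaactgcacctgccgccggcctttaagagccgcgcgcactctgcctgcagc
MAP1B: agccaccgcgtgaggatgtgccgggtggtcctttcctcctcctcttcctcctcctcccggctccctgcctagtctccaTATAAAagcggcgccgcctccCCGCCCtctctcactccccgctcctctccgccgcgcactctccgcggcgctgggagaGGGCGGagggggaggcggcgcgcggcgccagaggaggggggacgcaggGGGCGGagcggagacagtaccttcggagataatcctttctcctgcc
MAP2: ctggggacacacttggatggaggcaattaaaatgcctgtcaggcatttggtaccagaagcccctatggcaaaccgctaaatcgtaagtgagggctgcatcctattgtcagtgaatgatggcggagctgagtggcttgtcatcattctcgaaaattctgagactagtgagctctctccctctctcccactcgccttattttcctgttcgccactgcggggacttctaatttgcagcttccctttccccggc
DCLK1, outer start: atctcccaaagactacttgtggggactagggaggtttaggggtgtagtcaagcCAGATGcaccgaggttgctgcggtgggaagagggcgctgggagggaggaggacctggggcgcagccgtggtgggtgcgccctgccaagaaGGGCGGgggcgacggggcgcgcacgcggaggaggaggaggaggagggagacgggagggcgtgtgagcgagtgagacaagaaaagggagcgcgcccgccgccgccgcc
DCLK1, internal start: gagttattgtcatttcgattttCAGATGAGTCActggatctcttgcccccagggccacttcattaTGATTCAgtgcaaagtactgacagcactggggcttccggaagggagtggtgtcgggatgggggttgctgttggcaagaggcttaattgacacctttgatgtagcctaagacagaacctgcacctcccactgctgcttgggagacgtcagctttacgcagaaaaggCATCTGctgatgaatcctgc

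The windows shown for the MAP1 genes are CpG-rich, with 18 CpG dinucleotides for MAP1A and 25 for MAP1B, against a median of 11 over 35116 RefSeq windows of the same length. The MAP1A window shown holds 2 GC boxes, and the MAP1B window shown holds 3 GC boxes and a TATA box. The outer DCLK1 window holds 22 CpG dinucleotides, 1 GC box and 1 CAGATG E-box. The DCLK1 window further upstream, not shown, holds 2 CpG dinucleotides, 1 AP-1 element and no match to the other motifs. The MAP2 window shown holds 8 CpG dinucleotides and no match to the motifs searched. Further windows of MAP1A, MAP1B and MAP2, at other RefSeq starts, are not shown either. That of MAP1A (chr15:43517358-43517607) holds 4 GC boxes. That of MAP1B (chr5:72179537-72179786) holds 2 GC boxes, 1 CAGATG E-box and 1 TATA box. For MAP2, the window at chr2:209579082-209579331 holds 1 CAGATG E-box, and that at chr2:209661246-209661495 holds no match. At the internal DCLK1 start there are 5 CpG dinucleotides, 2 CAGATG E-boxes and 2 AP-1 elements, and 1 E-box and 1 AP-1 element share bases. Of all windows, 42.6% hold the GC box, 12.2% the CAGATG E-box, 2.63% the CATATG E-box, 10.7% the TATA box and 6.57% the AP-1 element. Windows were matched for MAP1A, MAP1B, MAP2, MAP4, DCX, DCLK1 and DPYSL3, and not for MAPT, MAP6 and DPYSL2. Counts per gene do not show which start the cells used.

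The libraries held 30379242 to 31286361 reads assigned to genes in the control group and 31740870 to 40275498 in SMN1-labelled libraries. SMN1 itself, which encodes the survival motor neuron protein, was lower in SMN1-labelled libraries, at 16.0 ± 1.08 CPM (counts scaled to a common library size) against 20.02 ± 0.432 (SD, n = 3; edgeR adjusted p = 9.4e-05). Its near-identical paralog SMN2 was 1.23-fold lower (0.0031; not called on unfiltered FPKM, 0.0546), and reads of the pair are hard to tell apart. The label and the level of the labelled gene therefore point in opposite directions, and every direction below is between libraries as labelled. The adrenergic neuroblastoma list was abundant in both groups, with summed levels of 25862 to 27628 CPM in the control and 33257 to 34534 CPM in SMN1-labelled libraries. Of its 10 genes, 4 rose and 5 fell (edgeR), and TH, which encodes tyrosine hydroxylase, was near 0, at 0.169 CPM in the control and 0.0201 CPM in SMN1-labelled libraries. CHGA and CHGB, both among those that rose, made up most of the adrenergic sum. The mesenchymal-type list was lower, at 723 to 793 CPM against 984 to 1021 CPM, with 6 of 10 genes down and 1 up. Most of that sum was TWIST1 (704 CPM in the control and 565 in SMN1-labelled libraries) and VIM (189 and 92.6). Glial markers summed to 2.40 to 2.66 CPM against 3.83 to 5.34 CPM in the controls. Epithelial, blood and fibroblast markers summed to 13.99 to 16.9 CPM against 38.1 to 40.45 CPM. Of each of these last 2 lists, 5 of 6 genes were found, 3 were tested and 2 fell. In the last list KRT18 (15.1 CPM in the control and 5.68 in SMN1-labelled libraries) and COL1A1 (21.7 and 7.44) fell, and EPCAM was not called. PTPRC, a blood marker, was at 0.0335 and 0.0203 CPM and was not tested. Over all genes tested, 28.0% were called higher and 28.2% lower. No marker found was at 0 in every library. These shifts move with the group, and their part in the results below was not tested.

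Of the 10 genes, 5 rose in SMN1-labelled libraries (MAPT, MAP2, MAP6, DCLK1 and DPYSL2), 3 fell (MAP1A, MAP1B and DPYSL3), and MAP4 and DCX did not pass the test (edgeR quasi-likelihood test on read counts, Benjamini-Hochberg adjusted over all genes tested, called at an adjusted p of at most 0.05). Calls were broad in these data: 28.0% of all genes tested were called higher and 28.2% lower. The groups did not overlap for 8 of the 10 genes, against 60.7% of all genes tested. The median log2 fold change of the 10 genes was 0.04, where that of all genes tested was 0.00087. Most of the changes were of middling size among all genes: DCLK1 lay at the 89.2 percentile of absolute log2 fold change, MAP2 at 63.4, MAP6 at 62.3, MAPT at 59.0, MAP1A at 55.2 and DPYSL3 at 53.9, while MAP1B and DPYSL2 lay at 25.6 and 19.3. The summed level of the 10 genes was close in the groups, 1216 to 1254 CPM in the control and 1252 to 1256 CPM in SMN1-labelled libraries. Levels are in CPM on library sizes scaled by TMM factors, and folds compare the SMN1-labelled with the control group. In bulk RNA, fewer cells that express a gene and less of its RNA per cell cannot be told apart. None of the 150-nt windows of the longest transcript of these 10 genes occurred in a transcript of another gene in the GENCODE v29 annotation.

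**Figure D1:**
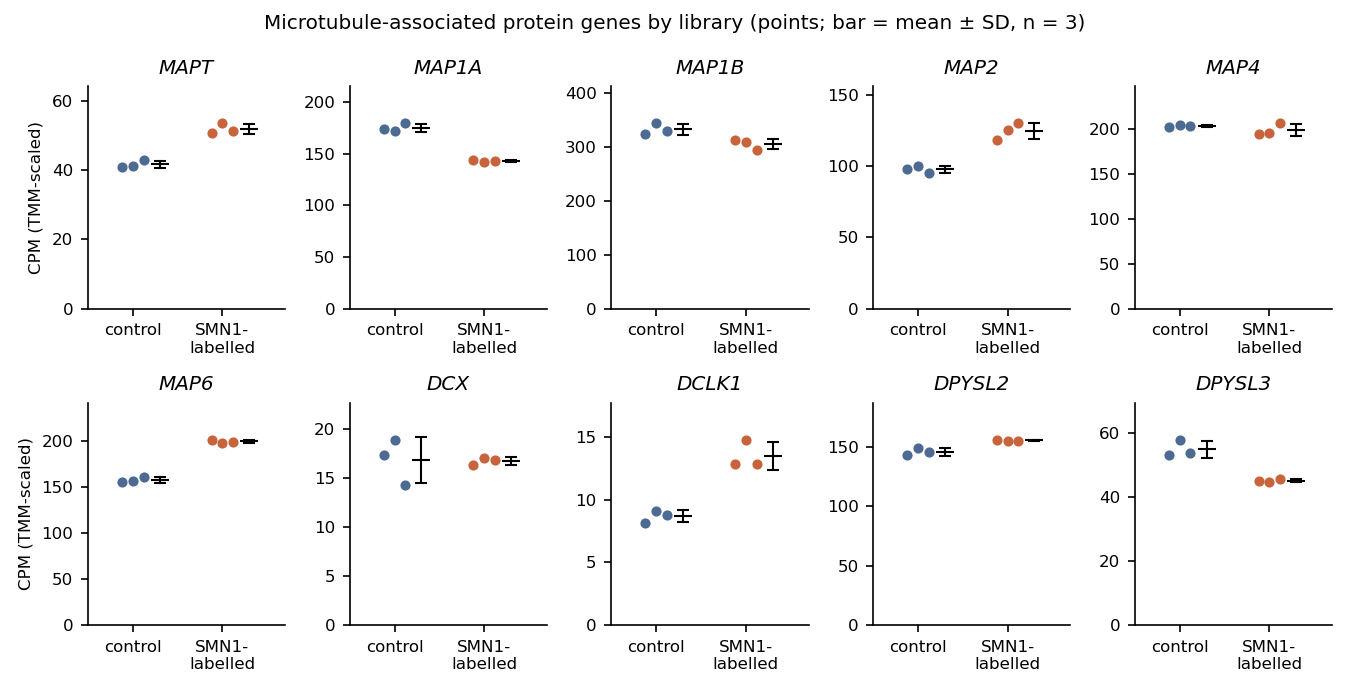
Level of each of the 10 genes in each library, in TMM-scaled CPM on a linear axis that starts at 0, with the mean ± SD of 3 libraries beside the points. The SMN1-labelled points lie above every control point for MAPT, MAP2, MAP6, DCLK1 and DPYSL2, below for MAP1A, MAP1B and DPYSL3, and overlap them for MAP4 and DCX.

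In the tau family, the neuronal members MAPT and MAP2 rose and the widely expressed MAP4 did not pass the test. MAPT, located by the GENCODE v29 annotation of GRCh38 (chr17:45894382-46028334, plus strand), encodes tau, which is enriched in axons. It was at 40.8, 41.2 and 42.8 CPM in the controls and 50.7, 53.5 and 51.1 CPM in SMN1-labelled libraries. Every SMN1-labelled library lay above every control library. The group means were 41.6 ± 1.07 and 51.8 ± 1.51 CPM (SD, n = 3), a 1.25-fold rise (log2 fold change 0.32 with an SE of 0.04, edgeR adjusted p = 7.88e-07). The antisense gene MAPT-AS1 overlaps 75 nt of MAPT exons (0.503%) and held 0 to 13 reads per library.

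MAP2 (chr2:209424058-209734118, plus strand) encodes the main microtubule-associated protein of dendrites. It was at 98.2, 100.6 and 95.7 CPM in the controls and 119, 126 and 130.5 CPM in SMN1-labelled libraries, with no overlap. It rose 1.27-fold, from 98.2 ± 2.48 to 125 ± 5.81 CPM (log2 fold change 0.35 with an SE of 0.04, edgeR adjusted p = 5.73e-08). Once trends with gene length and GC were removed, the log2 fold change of MAP2 was 0.11 (edgeR adjusted p = 0.00929).

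MAP4 (chr3:47850690-48089272, minus strand) encodes the tau-family protein of dividing and non-neuronal cells. It stood at 203, 205 and 204 CPM in the controls and at 194, 196 and 207 CPM in SMN1-labelled libraries. The third SMN1-labelled library lay above all control libraries and the other two below, so the groups overlapped. The log2 fold change was -0.03 with a 95% interval from -0.11 to 0.04 (edgeR adjusted p = 0.420), and it was 0.05 on log2(FPKM + 0.1), also short of the threshold.

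Both large MAP1 genes fell. MAP1A (chr15:43510958-43531620, plus strand) encodes the member of the family most abundant in mature neurons. Its control libraries held 174, 172 and 179.8 CPM and its SMN1-labelled libraries 144, 142 and 143 CPM. The groups were well apart, and the SMN1-labelled libraries lay close together. MAP1A fell 1.23-fold, from 175 ± 3.98 to 143 ± 1.16 CPM (log2 fold change -0.29 with an SE of 0.03, edgeR adjusted p = 1.07e-07), and its log2 fold change was -0.19 on log2(FPKM + 1).

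MAP1B (chr5:72107234-72209570, plus strand) encodes the member that appears early in growing axons, and by FPKM it was the most abundant of the 10 genes in the controls. Its level was 323, 343 and 329 CPM in the controls and 312, 308 and 294 CPM in SMN1-labelled libraries. The groups did not overlap, but the gap between the nearest libraries was small. MAP1B fell 1.09-fold, from 332 ± 10.4 to 305 ± 9.01 CPM (log2 fold change -0.12 with an SE of 0.04, edgeR adjusted p = 0.00464). It was not called on log2(FPKM + 1), where the log2 fold change was -0.03 (limma adjusted p = 0.423, and 0.426 or 0.527 with another pseudocount or no filter), and after the length and GC correction it was -0.30.

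MAP6 rose, with the smallest adjusted p of the 10 genes. MAP6 (chr11:75586918-75669120, minus strand) encodes the protein, also called STOP, that keeps neuronal microtubules stable in the cold. It was at 156, 156 and 161 CPM in the controls and at 202, 198 and 199 CPM in SMN1-labelled libraries. No library of one group came near the other. The rise was 1.27-fold, from 158 ± 3.07 to 199.7 ± 1.84 CPM (log2 fold change 0.34 with an SE of 0.03, edgeR adjusted p = 8.30e-09). Over 17 alternative analyses its log2 fold change stayed between 0.33 and 0.43. Its relative MAP6D1 was barely expressed, at 0.377 and 0.385 CPM.

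The doublecortin family split. DCX (chrX:111293779-111412429, minus strand) encodes doublecortin, a marker of immature and migrating neurons. It held 17.3, 18.9 and 14.3 CPM in the controls and 16.3, 17.1 and 16.8 CPM in SMN1-labelled libraries, from 415 to 710 reads each. The SMN1-labelled libraries all lay inside the range of the control libraries. The log2 fold change was -0.01 with a 95% interval from -0.17 to 0.14 (edgeR adjusted p = 0.907). The length and GC correction took it to -0.24 and past the threshold (edgeR adjusted p = 0.00767), while on log2(FPKM + 0.1) it was 0.09 and not called.

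DCLK1 (chr13:35768652-36131306, minus strand) joins doublecortin domains to a protein kinase domain. It was the least abundant of the 10 genes and had the largest fold change of them on counts. Its levels were 8.16, 9.14 and 8.82 CPM in the controls and 12.9, 14.8 and 12.9 CPM in SMN1-labelled libraries, from 245 to 616 reads. The lowest SMN1-labelled library lay well above the highest control library. DCLK1 rose 1.56-fold, from 8.71 ± 0.502 to 13.5 ± 1.12 CPM (log2 fold change 0.64 with an SE of 0.08, 95% interval 0.48 to 0.80, edgeR adjusted p = 2.92e-07). Over the alternatives its log2 fold change ran from 0.30 on log2(FPKM + 1), where MAP6 (0.41), MAP2 (0.39) and MAPT (0.303) were above it, to 0.68. It was 0.42 after the length and GC correction.

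DPYSL2 and DPYSL3, the CRMP genes among the 10, moved in opposite directions. DPYSL3 (chr5:147390811-147510056, minus strand) encodes CRMP4, which acts on actin as well as tubulin in growth cones. It was at 53.0, 57.9 and 53.8 CPM in the controls and 45.1, 44.5 and 45.7 CPM in SMN1-labelled libraries, which were all below. DPYSL3 fell 1.22-fold, from 54.9 ± 2.64 to 45.1 ± 0.558 CPM (log2 fold change -0.29 with an SE of 0.04, edgeR adjusted p = 4.42e-06), and its log2 fold change was -0.17 on log2(FPKM + 1).

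DPYSL2 (chr8:26514022-26658178, plus strand) encodes CRMP2, which binds tubulin dimers and promotes axon growth. It held 143, 149 and 145.5 CPM in the controls and 156, 155 and 155 CPM in SMN1-labelled libraries. The groups did not overlap, and the change was small: DPYSL2 rose 1.07-fold, from 146 ± 3.24 to 156 ± 0.572 CPM (log2 fold change 0.09 with an SE of 0.03, edgeR adjusted p = 0.0244). The call was lost in 5 of 17 alternatives: without the first control library (adjusted p = 0.120), the third control library (0.0510) or the second SMN1-labelled library (0.0563), with upper-quartile factors (0.0600), and with length and GC trends removed (0.0850). On log2(FPKM + 0.1) the log2 fold change was 0.18. The adjusted p ran from 0.00121 to 0.120 over all of them. PNMA2, on the opposite strand, overlaps 71 nt of DPYSL2 exons (0.972%). PNMA2 held 4109 to 4448 reads in the control and 6518 to 8309 in SMN1-labelled libraries, and whether reads were counted by strand is not given.

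**Figure D2:**
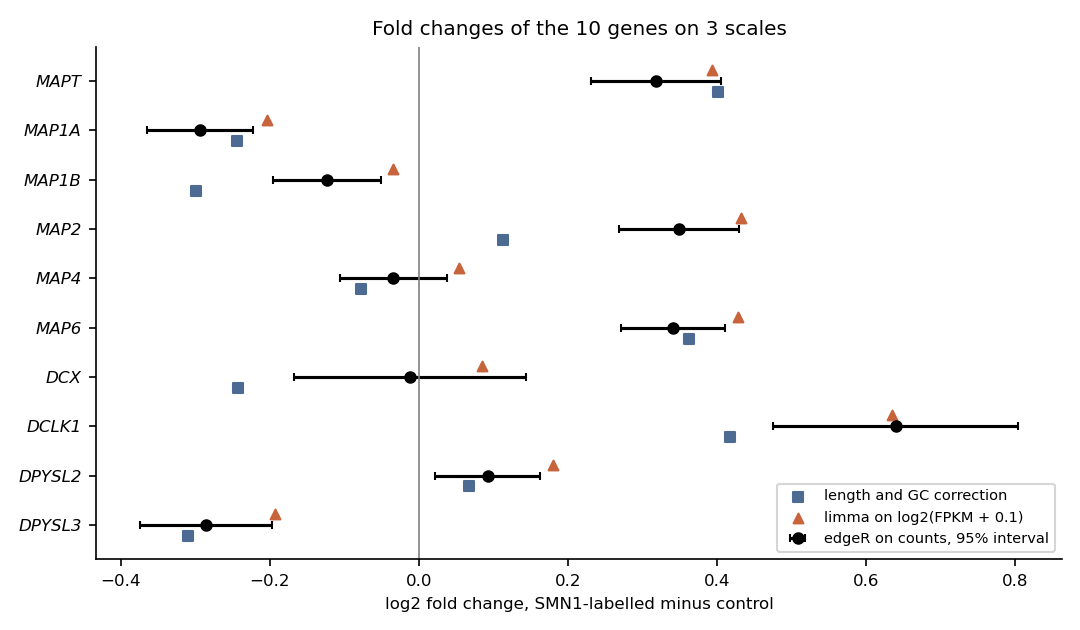
Log2 fold change of each gene, SMN1-labelled minus control, with the edgeR estimate and 95% interval (black), limma on log2(FPKM + 0.1) (triangles) and edgeR with length and GC trends removed (squares). The sign is the same on all 3 scales for every gene but MAP4 and DCX, whose FPKM values are positive, and the corrected values of MAP2, MAP1B, DCX and DCLK1 lie outside their intervals.

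Per length, the order of the 10 genes differed between the groups at the top. In the controls MAP1B led at 24.2 ± 0.879 FPKM (fragments scaled by gene length and library depth, the authors' deposited values), followed by MAP6 at 22.7 ± 0.170 and DPYSL2 at 18.3 ± 0.486. In SMN1-labelled libraries MAP6 led at 30.5 ± 0.211 FPKM, above MAP1B at 23.6 ± 0.589 and DPYSL2 at 20.7 ± 0.0520. The ranges of MAP1B and MAP6 did not overlap in either group, so their order was turned around on this scale. Reads and FPKM imply a length of 6725 to 6748 nt for MAP6 and 13280 to 13330 nt for MAP1B. Each was nearer the length of all exons (6433 and 12630 nt) than that of the longest transcript (4329 and 12036 nt). Orders, family shares and per-length ratios between genes rest on such lengths. With other lengths they could differ, which was not tested. MAP1A (15.1 ± 0.175 FPKM) and MAP4 (12.4 ± 0.166) were apart in the controls and overlapped in SMN1-labelled ones (13.1 ± 0.0971 and 12.9 ± 0.488). MAP2 (7.60 ± 0.274) and DPYSL3 (6.997 ± 0.376) overlapped in the controls and were apart in SMN1-labelled ones (10.3 ± 0.532 and 6.10 ± 0.0945). MAPT, DCX and DCLK1 closed the order in both groups, at 2.52 ± 0.0351, 1.51 ± 0.225 and 0.55 ± 0.03 FPKM in the controls and 3.35 ± 0.103, 1.59 ± 0.0473 and 0.91 ± 0.0781 in SMN1-labelled libraries. The FPKM values of a library summed to 308575 to 313782 in the control and 279585 to 280450 in SMN1-labelled libraries. Of the calls made on log2(FPKM + 1), 62.5% were higher, against 49.8% of those on counts. The FPKM values follow total reads and do not carry the TMM factors, 0.956 to 0.976 in the control and 1.026 to 1.036 in SMN1-labelled libraries. The median log2 fold change was 0.087 over 12711 genes on log2(FPKM + 0.1), and 0.00087 over those tested on counts. Fold changes on FPKM, among them those of MAP1B, MAP4, DPYSL2 and CRMP1, are to be read against this general shift.

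Within a library, the ratio of reads of related genes does not depend on library size or scaling. Each of 6 ratios was compared with an exact permutation test over libraries, two-sided, which with 3 against 3 cannot go below p = 0.1. The log2 ratio of MAPT to MAP4 was -2.29 ± 0.0368 in the control and -1.94 ± 0.0713 in SMN1-labelled libraries, and that of MAP2 to MAP4 was -1.05 ± 0.0328 and -0.67 ± 0.0349 (SD, n = 3). Both neuronal genes were higher relative to MAP4 in every SMN1-labelled library than in any control, by 0.35 and 0.38 on the log2 scale, and by 0.48 and 0.19 once length and GC trends were removed. MAPT and MAP2 were not separated from each other: their log2 ratio was -1.24 ± 0.0687 and -1.27 ± 0.0702, and the groups overlapped (exact permutation p = 0.6, adjusted p = 0.6). The difference of -0.03 turned to 0.29 with the trends removed.

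The log2 ratio of DCX to DCLK1 was 1.09, 1.05 and 0.70 in the controls and 0.34, 0.20 and 0.38 in SMN1-labelled libraries, a difference of -0.63. The ratio of DPYSL3 to DPYSL2 was at -1.41 ± 0.0381 and -1.79 ± 0.0187, a difference of -0.38. For MAP1A to MAP1B it was -0.92 ± 0.0674 and -1.09 ± 0.0439, a difference of -0.17 that turned to 0.055 after the length and GC correction. The groups did not overlap for 5 of the 6 ratios, each with exact permutation p = 0.1 (adjusted p = 0.12 over the 6), so none could pass. For comparison, 60.7% of single genes tested did not overlap between groups. Per length, MAPT stood at 0.203 of MAP4 in the control and 0.260 in SMN1-labelled libraries, MAP2 at 0.612 and 0.797 of MAP4, and DPYSL3 at 0.382 and 0.294 of DPYSL2. DCX was 2.74 times DCLK1 per length in the controls and 1.76 times in SMN1-labelled libraries.

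**Figure D3:**
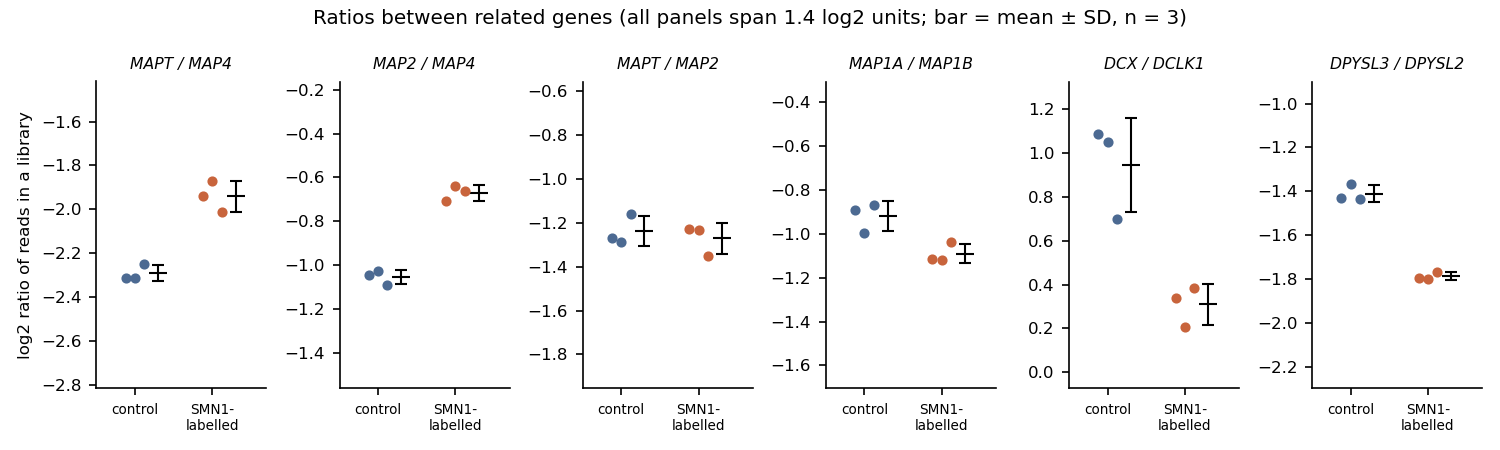
Log2 ratio of read counts of 2 related genes within each library, 1 panel per pair, each panel spanning the same number of log2 units, with the mean ± SD of 3 libraries beside the points. The groups are apart in every panel except MAPT to MAP2, where they overlap.

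The make-up of each family, as shares of its summed FPKM, shows where these changes sit. MAP4 supplied 55.1% ± 0.283 of the tau family in the control and 48.6% ± 0.600 in SMN1-labelled libraries, MAP2 33.7% ± 0.600 and 38.8% ± 0.554, and MAPT 11.2% ± 0.333 and 12.6% ± 0.519, with no overlap between groups. In the MAP1 family the share of MAP1B was 51.9% ± 1.15 and 54.1% ± 0.834, that of MAP1A 32.3% ± 0.817 and 29.96% ± 0.564, and that of MAP1S, a shorter and widely expressed relative, 15.8% and 15.9% with overlap. The family sum was 46.6 FPKM in the controls and 43.6 FPKM in SMN1-labelled libraries. MAP1S fell 1.13-fold (edgeR adjusted p = 0.00225), a call lost on FPKM values and after the length and GC correction.

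DCLK3, which is not among the 10 genes, made up most of the summed FPKM of the doublecortin family in these cells. Its share was 53.4% ± 1.61 in the control and 62.1% ± 0.421 in SMN1-labelled libraries, and it rose 1.46-fold, from 39.0 ± 1.43 to 56.9 ± 1.32 CPM (edgeR adjusted p = 1.56e-10). DCX supplied 12.6% ± 1.82 and 9.97% ± 0.197 of the family, and DCLK1 4.59% ± 0.278 and 5.69% ± 0.381. The share of DCLK2 was 29.5% ± 0.321 and 22.3% ± 0.874 although its level did not pass the test (log2 fold change -0.08, edgeR adjusted p = 0.258), since the family sum went from 11.99 to 15.98 FPKM.

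Among the CRMPs, DPYSL2 and DPYSL3 were minor members by FPKM. CRMP1 supplied 34.8% ± 0.630 and 37.45% ± 1.03 of the family, DPYSL4 27.9% ± 0.498 and 22.5% ± 0.769, DPYSL5 22.3% ± 0.479 and 24.7% ± 0.892, DPYSL2 10.8% ± 0.234 and 11.8% ± 0.255, and DPYSL3 4.13% ± 0.197 and 3.49% ± 0.107. DPYSL4 fell 1.28-fold (edgeR adjusted p = 3.74e-08), like DPYSL3, but lost its call after the length and GC correction (0.0646). DPYSL5 rose 1.08-fold (0.00795), and lost its call without the first control library (0.0560). Its log2 fold change of 0.11 on counts was 0.20 after the correction. CRMP1 was not called on counts (log2 fold change 0.07, 95% interval -0.01 to 0.14, edgeR adjusted p = 0.121) and was called in 6 of 17 alternatives, among them without the third SMN1-labelled library (0.0217).

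**Figure D4:**
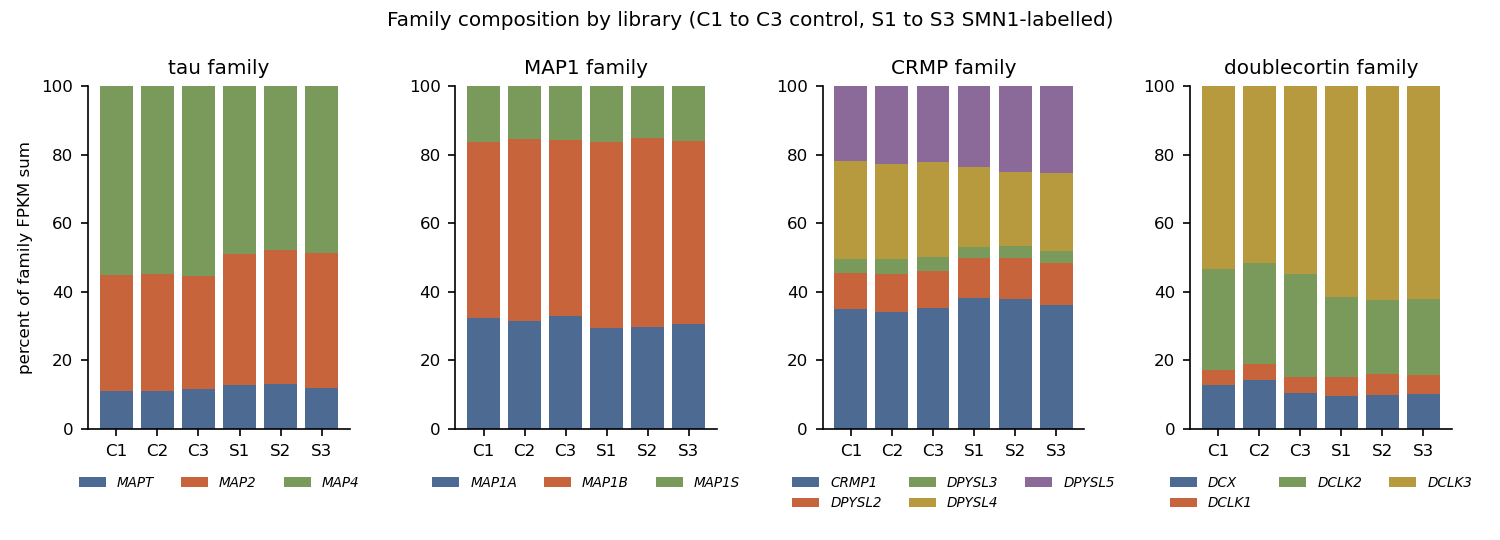
Shares of each family's summed FPKM, in percent, for the 3 control libraries (C1 to C3) and the 3 SMN1-labelled libraries (S1 to S3). MAP4 takes the largest share of the tau family in every library but a smaller one in SMN1-labelled libraries, and DCLK3 takes over 50% of the doublecortin family in all 6.

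Gene length and GC content went along with the differences across all genes, and most of these 10 genes are long. MAPT, MAP1A, MAP1B, MAP2, MAP4 and DCLK1, 6 of the 10, are in the longest decile of tested genes (1566 genes with exons of at least 10242 nt). That decile had a median log2 fold change of 0.15, with 47.2% of its genes called higher and 14.3% lower. MAP1A and MAP1B were among the 14.3%, and MAPT, MAP2 and DCLK1 among the 47.2%. GC content was 55.3% for MAP1A and 44.9% for MAP1B, and 57.4% for MAPT and 42.1% for MAP2. By decile of GC content, the median log2 fold change was -0.15 in that of MAP1A and MAPT. It was 0.12 in the GC decile of MAP1B and 0.19 in that of MAP2 and DCLK1. Trends with length and GC were removed within each library and the fit repeated. MAPT was then at 0.40, MAP6 at 0.36, DCLK1 at 0.42 and MAP2 at 0.11 on the log2 scale, and MAP1A at -0.24, MAP1B at -0.30, DPYSL3 at -0.31 and DCX at -0.24. With this correction 4 of the 10 genes were called higher and 4 lower. Library scaling alone did not turn any of the 8 called genes around in the alternatives run.

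Other microtubule genes were counted in 4 lists. Each count stands beside the shares over all genes tested, 28.0% called higher and 28.2% lower. In the longest decile of genes these shares were 47.2% and 14.3%. Of 19 tested structural relatives 6 rose, 5 fell and 8 were not called, and the median log2 fold change was 0.07. Besides DCLK3, MAP7D2, whose family recruits kinesin to microtubules, rose 1.30-fold from 130.3 ± 3.81 to 169 ± 1.29 CPM. MAP7 rose 1.16-fold, a call lost after the length and GC correction (edgeR adjusted p = 0.290). TPPP3, a tubulin polymerisation-promoting protein, fell 1.46-fold from 29.01 ± 1.52 to 19.8 ± 0.128 CPM, and MAP7D1 fell 1.21-fold from 931 ± 33.0 to 769 ± 39.1 CPM. The correction took TPPP3 from -0.55 to -0.26 and MAP7D1 from -0.28 to -0.09 on the log2 scale, both still called. The number that fell was 2 after the length and GC correction and 3 on FPKM without a filter.

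Of 26 kinases, phosphatases and regulators that act on these proteins 12 rose, 2 fell and 12 did not pass, with a median of 0.11. GSK3B, a tau kinase, rose 1.27-fold from 34.8 ± 1.36 to 44.4 ± 1.33 CPM. Its log2 fold change of 0.35 was 0.11 after the length and GC correction, still called. Both PPP2CB and PPP2R2A, subunits of the phosphatase PP2A, which acts on tau, rose, by 1.32- and 1.25-fold, the latter lost after the length and GC correction (edgeR adjusted p = 0.214). The scaffold subunit gene PPP2R1A fell 1.12-fold on counts and was not called on FPKM. The number that fell was 5 after the correction and 1 on FPKM.

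Of 19 tested genes for proteins that bind microtubule ends or sever microtubules 12 rose, 3 fell and 4 did not pass, with a median of 0.14. The end-binding gene MAPRE2 rose 1.47-fold, from 72.8 ± 2.00 to 107 ± 1.16 CPM (edgeR adjusted p = 9.89e-12). CLASP2, which anchors plus ends, rose 1.35-fold and CLIP1 1.26-fold. The log2 fold changes of MAPRE2, CLASP2 and CLIP1, at 0.56, 0.43 and 0.33 on counts, were 0.37, 0.20 and 0.14 after the length and GC correction, all still called. NAV1, a neuron navigator that tracks plus ends, fell 1.42-fold from 43.7 ± 1.30 to 30.8 ± 0.260 CPM (-0.51 on the log2 scale, and -0.25 on log2(FPKM + 1)). NAV2, a relative of NAV1, fell 1.09-fold on counts and was not called on FPKM, where 1 of the 19 fell. NAV2 also lost its call without the second control library (0.0713) or the second SMN1-labelled library (0.0751).

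Of 16 tested tubulin-modifying enzymes 5 rose, 6 fell and 5 did not pass, with a median of -0.09. ATAT1, the tubulin acetyltransferase, fell 1.31-fold from 26.0 ± 0.478 to 19.9 ± 0.701 CPM, and HDAC6, a tubulin deacetylase, fell 1.17-fold. On log2(FPKM + 1) their log2 fold changes were -0.25 and -0.11, against -0.39 and -0.23 on counts. VASH1, a tyrosine-removing carboxypeptidase, and TTL, the ligase that restores the tyrosine, both rose 1.18-fold, and TTL lost its call after the length and GC correction (0.622). TTLL5 rose 1.17-fold and TTLL1 fell 1.27-fold, both for glutamylating enzymes, and TTLL1 lost its call after the correction (0.242), which took TTLL5 from 0.23 to 0.11. The number that fell was 3 on FPKM with the filter.

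**Figure D5:**
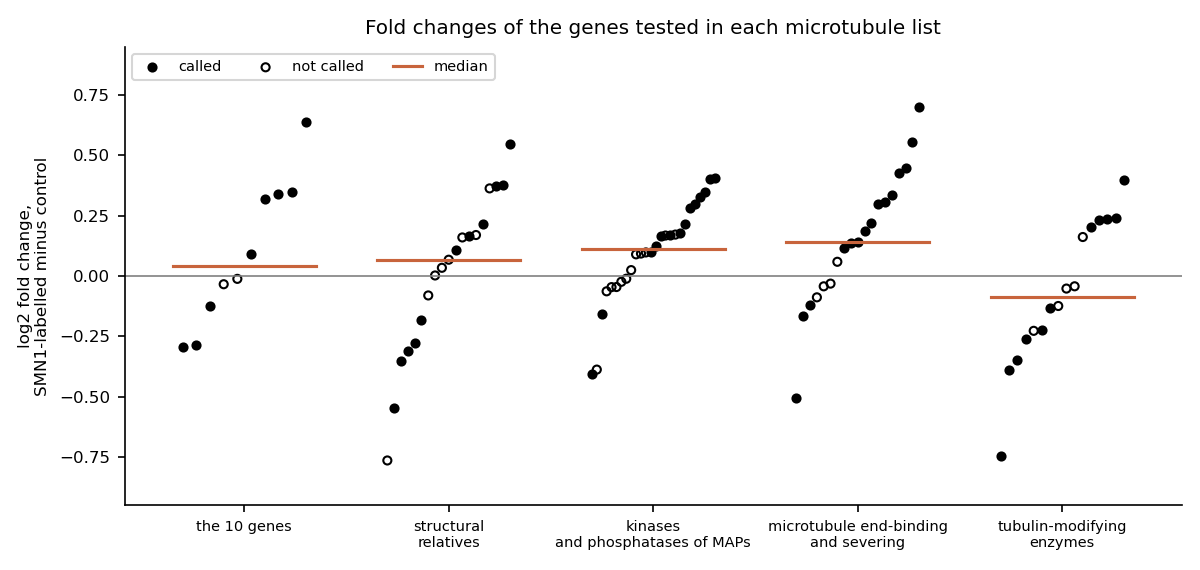
Log2 fold change, SMN1-labelled minus control, of each gene tested in the 5 lists (filled if called by edgeR at an adjusted p of at most 0.05), with the median of each list as a line. The medians lie between -0.09 for the tubulin-modifying enzymes and 0.14 for the end-binding and severing genes, and every list holds genes called in both directions.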

How the data were processed

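Stranded mRNA libraries of 6 SH-SY5Y samples were sequenced as paired reads of 150 nt, per the labels' protocols. The submitters' processing notes name GRCh38, HISAT2 and DESeq2. No counting tool, annotation or strand setting is given in the sources used here. The deposited counts are whole-number reads per gene for 28862 genes, and the deposited FPKM values, scaled by length and depth, cover 28501.

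Counts were tested with edgeR 4.0.16 in R 4.3.3 (TMM, filterByExpr, quasi-likelihood, group only, two-sided), with Benjamini-Hochberg adjustment over 15829 genes and calls at 0.05. Totals of 30379242 to 40275498 reads put 3 reads at 0.0721 to 0.103 CPM. No 2 libraries of a group agreed within counting noise (lowest chi-square over its degrees of freedom 2.52). Alternatives were DESeq2 1.42.0, limma 3.58.1 (voom, and log2 FPKM with pseudocounts of 1 or 0.1 for genes at 0.5 FPKM or more, or unfiltered), other scaling factors, no or a 1 CPM filter, a replicate block, each library left out, and spline corrections for length and GC content (GENCODE v29). That correction of the 6 ratios, given as a value with no test, was chosen after seeing the data. The fit was also run on simulated data with known changes, whose outcome is not given here. Fold changes on log2(FPKM + pseudocount) understate changes of low genes.

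The members and lists were chosen with earlier results of these data known. Named are the 10 genes, SMN1, SMN2, CRMP1, DPYSL4, DPYSL5, DCLK2, MAP1S, MAP6D1, and per list up to 3 genes called in each direction by adjusted p. Some genes the rule names are not reported here. Overlapping genes and marker genes were named in addition.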

Additional observations from a re-analysis of the deposited data

How the results depend on the processing

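Over 17 alternatives MAPT, MAP1A, MAP2, MAP6, DCLK1 and DPYSL3 kept their direction and their call in all 17, MAP1B in 14 and DPYSL2 in 12. The number of genes called in all, 8892, ranged from 7284 to 8906. Of the 10 genes 5 were higher and 3 lower, against 5 and 2 on FPKM and 4 and 4 after the length and GC correction. That correction reversed MAP1S to 0.018 (edgeR adjusted p = 0.757) on the log2 scale. It moved the difference between groups in the log2 ratio of MAPT to MAP4 from 0.35 to 0.48. For MAP2 to MAP4 the difference went from 0.38 to 0.19. The differences for MAPT to MAP2 (0.29) and MAP1A to MAP1B (0.055) were reversed, and the cause was not tested. Those for DCX to DCLK1 and DPYSL3 to DPYSL2 moved by less than the spread of these ratios. The tubulin-modifying enzymes called lower numbered 6, against 3 on filtered FPKM, 4 on unfiltered FPKM and after the correction, and 5 to 7 under the others. With the replicate block 8708 genes were called, with 5 of the 10 genes higher and 3 lower, and no call among the 10 changed. Same-numbered libraries did not deviate together over all genes tested (correlations 0.005, 0.013 and 0.003), so no pairing by number was seen. These values do not show how the libraries were prepared. Depth limits DCX and DCLK1 most, at 245 to 710 reads per library.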
